A study of Mus musculus with 2 samples.

Results

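The genes described here are the 53 components of transforming growth factor beta (TGF-beta), bone morphogenetic protein (BMP) and activin signalling, read in the adrenal glands of newborn mice. They were chosen by name as known components of the pathway, with no threshold on their values, and fall into 20 ligands, 13 receptors, 8 extracellular or membrane modulators, 8 Smad proteins and 4 Id target genes. All 53 matched a gene in the files, out of 43346 Ensembl genes listed there. The study made 1 total RNA-seq library from each of 2 pups of strain B6NCrl at postnatal day 0, with both adrenals of a pup in 1 library and 10 ng of starting RNA. The labels name no genetic change or treatment, say that sex was not collected, and give both pups the same pregnancy number. The 2 libraries are therefore 1 group, with no contrast and no test between conditions.

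TGF-beta family ligands are secreted dimers that bring together type I and type II receptor kinases. The type I receptor then phosphorylates Smad2 and Smad3, in the TGF-beta and activin branch, or Smad1, Smad5 and Smad9, in the BMP branch, and these enter the nucleus with the shared partner Smad4. In the adrenal cortex the family is best known through inhibin, whose alpha subunit is made by steroid-producing cells and which opposes activin.

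The libraries held 41510071 (pup 1) and 40800539 (pup 2) estimated counts. Levels are given in TPM, a relative abundance in which all transcripts of a library add up to the same total. TPM values account for transcript length and so can be set beside each other within a library. A difference between the pups is the log2 ratio of pup 2 over pup 1, from counts scaled so that the bulk of genes is level. Its 95% interval is an exact binomial one and covers counting error only, since each pup has 1 library. All 8 steroidogenic and all 8 chromaffin markers stood at TPM 1 or more in both libraries. So did all markers of stroma and capsule, sympathetic neurons, Schwann cells and glia, endothelium, leukocytes and liver. This threshold alone therefore cannot check the adrenal label. The libraries were not alike in the cell types they carried. Steroidogenic markers summed to 7277 TPM in pup 1 and 18999 in pup 2, stroma and capsule markers to 2348 and 1941, sympathetic neuron markers to 1144 and 368, and endothelial markers to 134 and 247. Markers of nearby organs also differed, with stomach and oesophagus markers at 144 and 5.91 TPM, kidney markers at 2.29 and 16.5, skeletal muscle markers at 56.0 and 227 and liver markers at 1747 and 1340. In whole tissue, fewer cells of a type and less RNA per cell cannot be told apart.

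Most of the pathway was present in both pups. Of the 53 members, 42 stood at TPM 1 or more in both libraries, against 32.9% of all Ensembl genes and 60.5% of the protein-coding ones. Another 4 reached TPM 1 only in pup 2: the stress-related ligand Gdf15, the Müllerian hormone receptor Amhr2, the activin-type receptor Acvr1c and the BMP-branch Smad9. The 7 that stayed under TPM 1 in both were the ligands Gdf5, Gdf6, Nodal, Amh and Mstn and the BMP antagonists Grem1 and Nog. Median levels by role were 2.65 ± 0.276 TPM for ligands, 5.66 ± 1.59 for receptors, 6.42 ± 1.5 for modulators, 7.64 ± 2.39 for Smads and 112 ± 3.24 for the Id genes (SD of the medians of the 2 pups, n = 2). The ligands thus had the lowest median and the Id genes the highest.

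**Figure D1:**
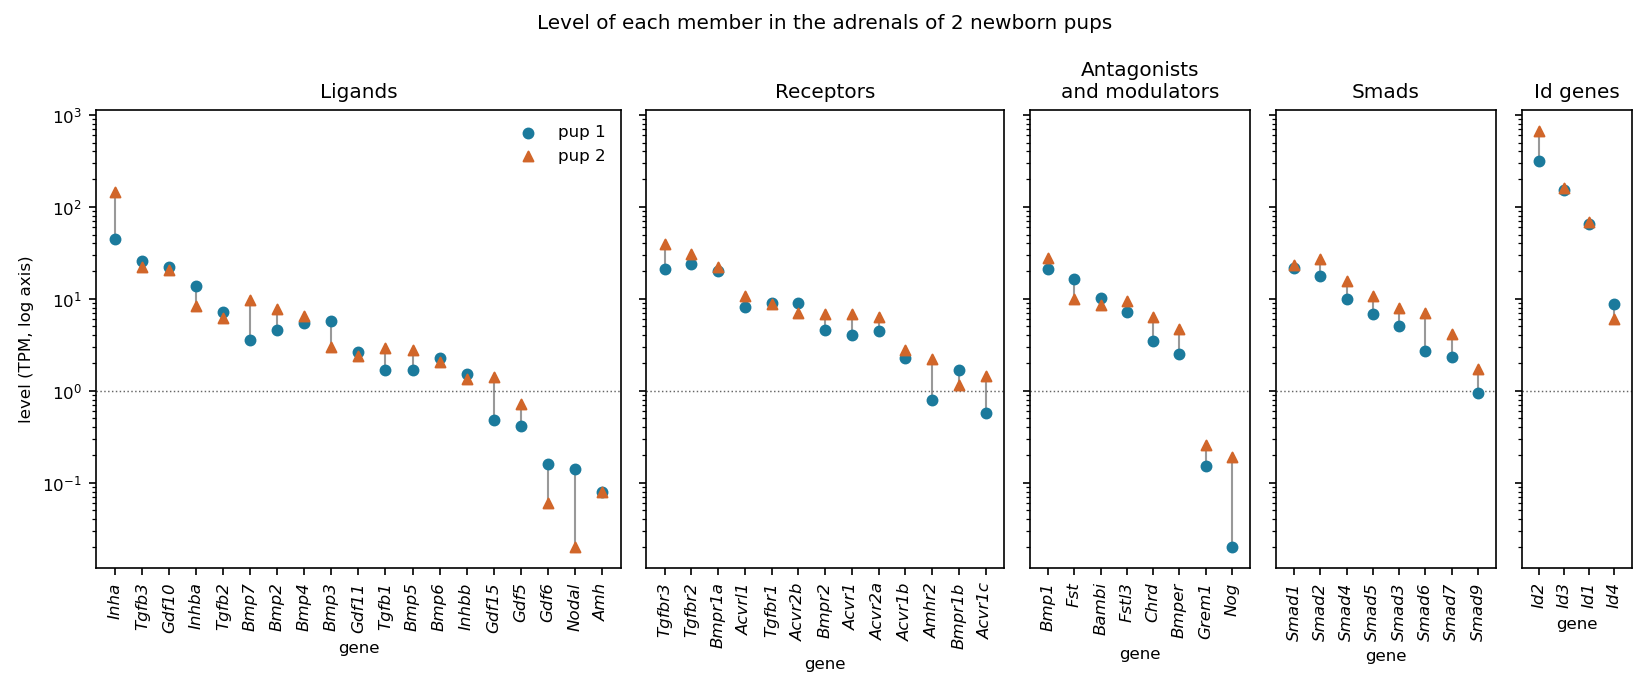
Level of each member in each pup, in TPM on a log axis, by role; circles are pup 1, triangles pup 2, and the dotted line marks TPM 1. Id2, Id3 and Id1 lie above most other members in both pups, Inha stands apart from the other ligands, and Mstn, listed at 0 in both pups, is not drawn.

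As a set, the members split between the pups much as all genes did. Of the 49 with a mean count of at least 10, 27 had a ratio above 0 (higher in pup 2) and 22 a ratio below 0, where 50.1% of the 18670 genes tested were above 0. Their median log2 ratio was 0.05, against 0.00 for all genes. A difference of more than 2-fold was found for 8 of the 49, against 15.8% of all genes tested, so the share is near the background. Higher in pup 2 were 3 of them, Inha, Gdf15 and Acvr1c (background 6.03%), and higher in pup 1 were 5, Gdf6, Bmp3, Inhba, Fst and Bmpr1b (background 9.77%). Among the 44 members with a mean count of at least 100, 6 were over 2-fold apart, where 9.13% of such genes were. Higher in pup 2 were Inha and Acvr1c (background 2.78%), and higher in pup 1 were Bmp3, Inhba, Fst and Bmpr1b (background 6.36%). The counting interval lay off 0 for 40 of the 49 members, a larger share than the 69.6% of all genes tested. This interval narrows as counts rise, and a mean count of at least 100 was reached by 44 of the 49 members. Of the 18670 genes tested, 13870 reached it. The part of this in the larger share was not tested. At this depth most differences exceed counting error, while the spread between animals is unknown.

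These directions are relative to the bulk of genes. Scaling by the added spike-in RNA, which made up 0.0138% of counts in pup 1 and 0.0025% in pup 2, shifts every ratio by 2.57 on the log2 scale and puts all 49 members higher in pup 2. The ratio of deposited TPM values runs above the count ratio by a median of 0.39, and under it 7 members change sign: Acvr1b, Id1, Id3, Bmpr1a, Bmp4, Smad1 and Tgfbr2. By TPM, 34 of the 49 members were higher in pup 2, where 72.1% of all genes tested were.

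**Figure D2:**
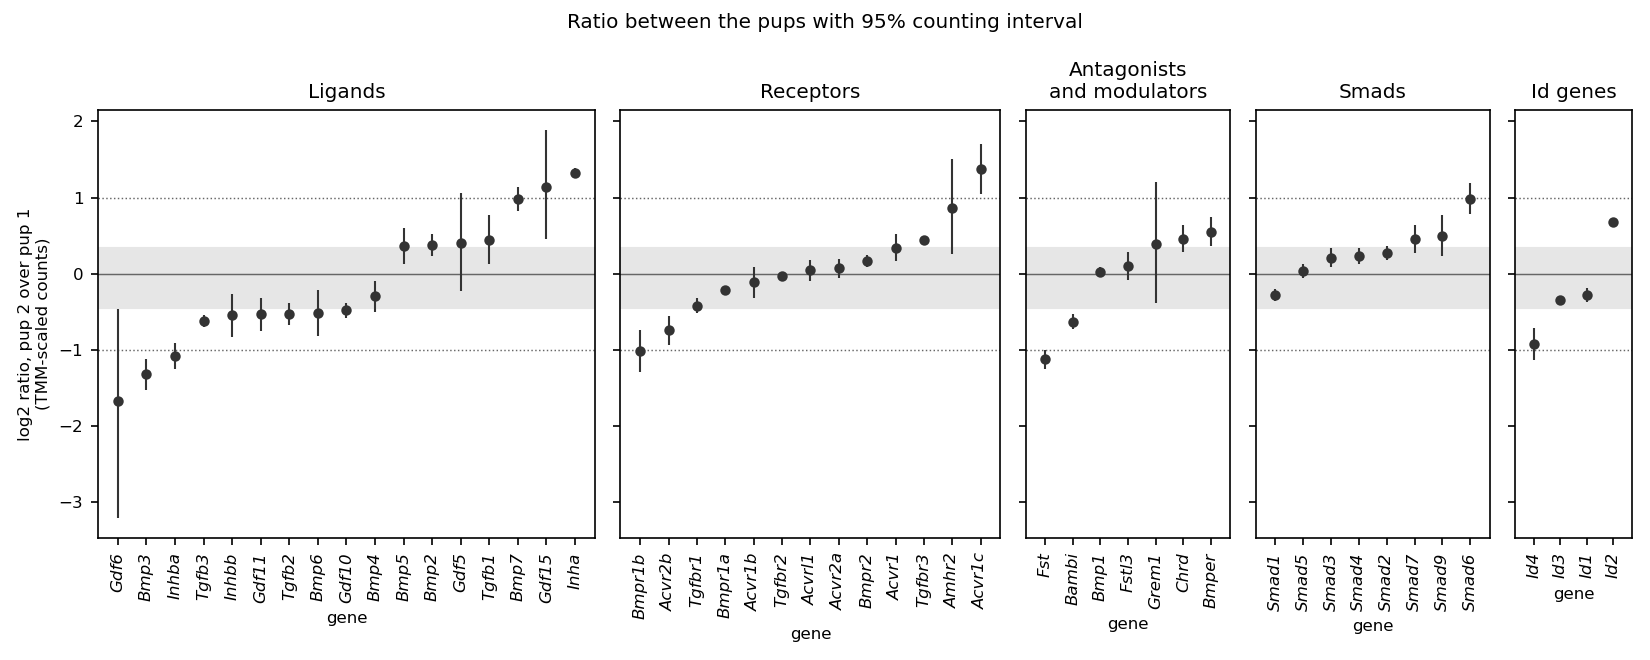
Log2 ratio of pup 2 over pup 1 for the 49 members tested, by role; bars are 95% intervals for counting error, the grey band is the interquartile range of all genes tested (-0.45 to 0.34) and dotted lines mark 2-fold. Inha, Acvr1c and Gdf15 lie beyond the upper line, and Gdf6, Bmp3, Fst, Inhba and Bmpr1b beyond the lower one.

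The most abundant ligand transcript was Inha (ENSMUSG00000032968.4, chr1:75507077-75510366, plus strand, mm10), which encodes the alpha subunit shared by the inhibins. It stood at 44.9 TPM in pup 1 (2493 counts) and 146 in pup 2 (6592 counts), a mean of 95.5 ± 71.6 (SD, n = 2). It was 2.49-fold higher in pup 2, with a log2 ratio of 1.32 and an interval of 1.25 to 1.38. The steroidogenic markers moved the same way, all 8 being higher in pup 2 (median log2 ratio 1.11). So did all 5 tested kidney and all 5 tested skeletal muscle markers. The part of any of these in the Inha difference was not tested. Inhba (chr13:16011851-16031621, plus strand), the beta A subunit that forms activin A and, with the alpha subunit, inhibin A, went the other way. It stood at 13.8 TPM (821 counts) in pup 1 and 8.42 (412 counts) in pup 2, 2.11-fold lower in pup 2, with a log2 ratio of -1.08 and an interval of -1.25 to -0.91. Inhbb, which encodes the beta B subunit, was lower still, at 1.51 and 1.35 TPM. Stroma and capsule markers were also lower in pup 2, for 8 of 8 genes (median log2 ratio -0.93). So were all tested sympathetic neuron (6 of 6, -1.99), Schwann and glial (6 of 6, -0.84), liver (6 of 6, -0.75) and stomach and oesophagus markers (5 of 5, -4.91). The part of any of these in the Inhba difference was not tested.

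Within a library these levels can be compared with no scaling between libraries. Of the summed TPM of Inha, Inhba and Inhbb, the 3 subunits among the members, Inha made up 74.6% in pup 1 and 93.7% in pup 2. Inhba made up 22.9% and 5.4%. The beta subunit genes Inhbe (1.95 and 2.76 TPM) and Inhbc (0.41 and 0.33) lie outside the members and are not in these sums. The alpha subunit outnumbered Inhba and Inhbb together by 2.94 to 1 in pup 1 and by 15 to 1 in pup 2. This ratio was 5.09-fold apart between the pups. Inha alone held 31.1% of the TPM of all 20 ligands in pup 1 and 59.8% in pup 2. Alpha-subunit transcript was thus in excess in both pups, to very different degrees.

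**Figure D3:**
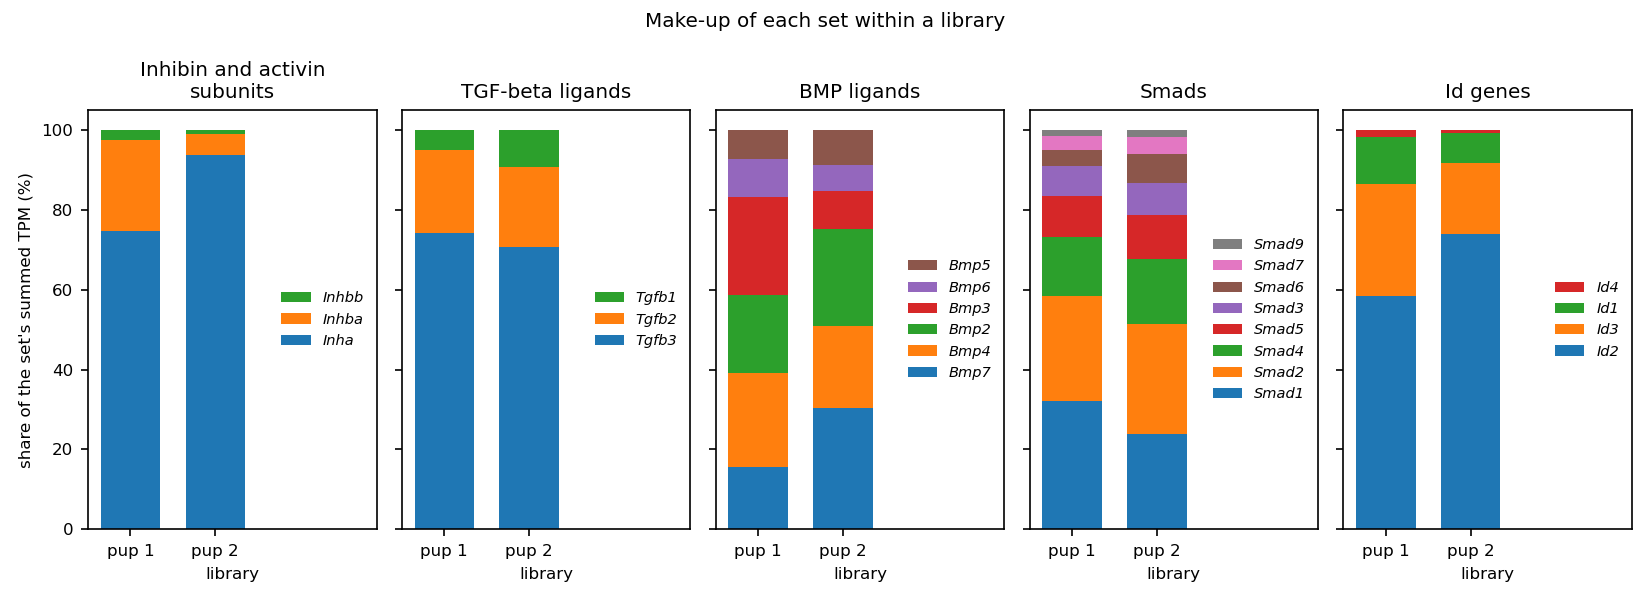
Share of each member in the summed TPM of its family, in percent, with 1 bar per pup and family. Inha fills 74.6% of the subunit bar in pup 1 and 93.7% in pup 2, Tgfb3 holds the largest share of TGF-beta ligands in both pups, and the BMP bars differ mainly in Bmp7 and Bmp3.

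Of the 3 TGF-beta genes, Tgfb3 led in both pups. It stood at 25.9 TPM (3435 counts) and 22.1 (2374 counts), a mean of 24.0 ± 2.74 (SD, n = 2), with a log2 ratio of -0.62. Tgfb2 followed at 7.27 TPM in pup 1 and 6.21 in pup 2, with a log2 ratio of -0.53. Tgfb1, the isoform most studied in immune cells and platelets, was the lowest at 1.69 and 2.91 TPM. The order Tgfb3, Tgfb2, Tgfb1 was the same in both libraries, where Tgfb3 held 74.3% and 70.7% of the summed TPM, Tgfb2 20.8% and 19.9%, and Tgfb1 4.85% and 9.34%.

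The 6 BMP ligands spanned a narrow range of 1.66 to 9.61 TPM, and none dominated. In pup 1 Bmp3 held the largest share of their summed TPM (24.5%), ahead of Bmp4 (23.7%), Bmp2 (19.5%) and Bmp7 (15.5%). In pup 2 Bmp7 came first (30.4%), ahead of Bmp2 (24.2%) and Bmp4 (20.6%), with Bmp3 at 9.45%. The leading BMP transcript was therefore not the same in the 2 animals. Bmp7, which is needed for kidney development, stood at 3.60 TPM (519 counts) and 9.61 (1088 counts), a 1.98-fold difference with a log2 ratio of 0.98 and an interval of 0.83 to 1.14. Kidney markers were likewise higher in pup 2, for 5 of the 5 with enough counts, though at low levels throughout. Of the kidney markers with too few counts, Umod, of the mature tubule, had 0 and 3, Nphs1 2 and 5 and Slc12a3 9 and 5. Also higher in pup 2 were 8 of 8 steroidogenic, 5 of 5 tested skeletal muscle and 5 of 6 endothelial markers. All stroma and capsule, sympathetic neuron, Schwann and glial and liver markers were lower. The part of any of these in the Bmp7 difference was not tested. Bmp3, a ligand that acts against other BMPs in bone, stood at 5.71 TPM (694 counts) and 2.99 (295 counts), 2.50-fold lower in pup 2 with a log2 ratio of -1.32 and an interval of -1.52 to -1.12. Bmp2 stood at 4.53 and 7.67 TPM (log2 ratio 0.38), Bmp4 at 5.52 and 6.53 (-0.30), Bmp5 at 1.66 and 2.78 (0.36) and Bmp6 at 2.26 and 2.07 (-0.51). Of the exon bases of Bmp6, 5.74% lie in exons of Txndc5, which had 11139 and 15130 counts against 211 and 157 for Bmp6, so reads in the shared stretch may have been assigned to either gene. Of the exon bases of Bmp5, 46.7% lie in exons of the antisense gene Gm26903, which had 22.1 and 46.0 counts.

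Among the growth and differentiation factors, Gdf10, also named BMP3b, was the highest, at 22.2 TPM in pup 1 and 20.8 in pup 2, a mean of 21.5 ± 1.00 (SD, n = 2), with a log2 ratio of -0.48. Its level lay below that of Tgfb3 and above that of Inhba in each library. Only across the 2 pups did its range overlap that of Tgfb3. Gdf11, known for patterning the body axis, stood at 2.65 and 2.39 TPM. Gdf15, a ligand released by stressed tissue, had 25 and 59 counts (0.48 and 1.41 TPM). It was 2.22-fold higher in pup 2, with a wide interval of 0.46 to 1.89 on the log2 scale. Gdf6 and Gdf5, which pattern joints, had few counts. Gdf6 had 22 and 7 counts, with an interval of -3.21 to -0.46, and Gdf5 had 37 and 52, with an interval that spans 0. Of the exon bases of Gdf5, 40.3% are shared with Gm15557, which had 6.84 and 31.7 counts. Nodal, a ligand of the early embryo, had 11 and 1 counts. Amh, the Müllerian inhibiting hormone of the gonad, had 5 and 4. Myostatin (Mstn), a brake on muscle growth, had 0 counts in both pups, which allows up to 3 counts in each, although skeletal muscle markers were present. Ligands as a group had a median log2 ratio of -0.48, with 10 of the 17 tested below 0, where 50.1% of all genes tested were above 0.

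Ranked by mean TPM, some neighbouring ligands did not overlap in level between the pups. These were Inha above Tgfb3, Gdf10 above Inhba, Inhba above Tgfb2, Bmp3 above Gdf11, Bmp6 above Inhbb, and, under TPM 1, Gdf5 above Gdf6 and Amh above Mstn. The last of these rests on 5 and 4 counts for Amh against 0 and 0 for Mstn. Since 0 allows up to 3 counts, the order of Amh and Mstn is not resolved. All other neighbours overlapped across the 2 pups, although some, such as Tgfb3 over Gdf10, kept their order within each library. From Tgfb2 through Bmp7, Bmp2 and Bmp4 to Bmp3 each ligand overlapped its neighbour, so the order of adjacent ligands there is not resolved by 2 animals. The ends of this run did not overlap, with Tgfb2 (7.27 and 6.21 TPM) above Bmp3 (5.71 and 2.99).

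All 13 receptors had a mean count of at least 10, and 11 of them stood at TPM 1 or more in both pups. The highest was Tgfbr3, or betaglycan, a coreceptor that presents TGF-beta2 and also binds inhibin. It stood at 21.1 TPM (5071 counts) in pup 1 and 39.6 (7285 counts) in pup 2, a mean of 30.4 ± 13.1 (SD, n = 2), with a log2 ratio of 0.44 and an interval of 0.39 to 0.49. Tgfbr2, the type II receptor for TGF-beta, stood at 24.0 and 30.7 TPM, and its levels overlapped those of Tgfbr3. Its log2 ratio was -0.03, with a counting interval of -0.09 to 0.03 that spans 0. Tgfbr2 held 56.2% and 58.0% of the summed TPM of the type II receptors. The activin receptor Acvr2b, at 8.89 and 6.93 TPM, held 20.8% and 13.1%.

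Among type I receptors, the BMP receptor Bmpr1a led in both pups with 43.7% and 41.2% of their summed TPM, at 20.0 TPM (4502 counts) and 22.3 (4107 counts), with a log2 ratio of -0.22 that turns positive as a TPM ratio. Acvrl1, or ALK1, a type I receptor of endothelial cells, stood at 8.15 and 10.8 TPM (log2 ratio 0.05, and -0.02 once a trend with length and GC content was removed). Tgfbr1, the TGF-beta type I receptor, stood at 9.03 and 8.88 TPM, a mean of 8.96 ± 0.106 (SD, n = 2), with a log2 ratio of -0.42. Summed, the type I receptors stood to the type II receptors as 1.07 to 1 in pup 1 and 1.02 to 1 in pup 2, so the balance of the 2 receptor classes was close to even in both animals.

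The remaining receptors were lower. Bmpr2, the BMP type II receptor, stood at 4.53 and 6.75 TPM, Acvr2a, for activin, at 4.50 and 6.27, and Acvr1, a BMP type I receptor, at 4.03 and 6.78, with log2 ratios of 0.17, 0.07 and 0.34. The levels of these 3 overlapped. Acvr1b, the main activin type I receptor, stood below them at 2.29 and 2.77 TPM. Of the exon bases of Acvr2a, 7.84% lie in exons of Orc4, on the opposite strand. Orc4 had 3255 and 2835 counts against 1014 and 1130 for Acvr2a, so reads in the shared stretch may have been assigned to either gene. The largest difference of any receptor was that of Acvr1c, or ALK7, a type I receptor for Nodal and some activins and GDFs, with 108 counts (0.57 TPM) and 297 counts (1.43 TPM). It was 2.59-fold higher in pup 2, with a log2 ratio of 1.37 and an interval of 1.05 to 1.71. Bmpr1b, a BMP type I receptor, had 320 counts (1.66 TPM) and 168 counts (1.16 TPM), 2.02-fold lower in pup 2, and the difference falls just under 2-fold with a pseudocount of 5 in place of 0.5 (log2 ratio -0.99). Amhr2, the receptor for Amh, had 35 and 68 counts (0.79 and 2.21 TPM).

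Secreted and membrane modulators set how much ligand reaches a receptor. Bmp1, which despite its name is a metalloprotease that cleaves the BMP antagonist chordin and procollagens, was the highest, at 21.1 TPM (3116 counts) and 28.0 (3358 counts), a mean of 24.6 ± 4.88 (SD, n = 2). Its log2 ratio of 0.02 becomes -0.03 once a trend with length and GC content is removed. Follistatin (Fst), which binds activin and blocks it, stood at 16.6 TPM (1495 counts) and 9.92 (728 counts). It was 2.18-fold lower in pup 2, with a log2 ratio of -1.12 and an interval of -1.25 to -0.99. The related Fstl3 stood at 7.25 and 9.57 TPM (log2 ratio 0.10). Of its exon bases, 47.3% lie in exons of Prss57, which had at most 18 counts in either pup.

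Follistatin and its main target Inhba were thus both higher in pup 1. The summed TPM of Fst and Fstl3 stood to that of Inhba and Inhbb as 1.56 to 1 in pup 1 and 1.99 to 1 in pup 2. This gap between the pups was much smaller than that of Inha over Inhba and Inhbb. Bambi, a truncated receptor that damps signalling, stood at 10.3 and 8.66 TPM (log2 ratio -0.63). The BMP antagonist chordin (Chrd) stood at 3.47 and 6.30 TPM (0.46), and Bmper, a BMP-binding regulator in blood vessels, at 2.48 and 4.75 (0.55). Grem1 had 25 and 35 counts and Nog, which encodes noggin, 1 and 10, so these secreted BMP antagonists lay under TPM 1 in both pups.

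All 8 Smad genes were measured, 7 of them at TPM 1 or more in both pups, and none was over 2-fold apart. Smad1, of the BMP branch, stood at 21.5 TPM (2601 counts) and 23.2 (2276 counts), a mean of 22.3 ± 1.22 (SD, n = 2). Its log2 ratio of -0.28 was the only one of the 8 below 0, and it turns positive as a TPM ratio. Smad2, of the TGF-beta and activin branch, stood at 17.6 TPM (1766 counts) and 26.9 (2269 counts), a mean of 22.2 ± 6.58, with a log2 ratio of 0.28. The levels of these 2 overlapped, and both lay above those of Smad4, the common partner, at 9.90 and 15.7 TPM (log2 ratio 0.23).

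Smad5 stood at 6.84 and 10.8 TPM and Smad3 at 5.06 and 7.85, with log2 ratios of 0.04 and 0.21. Smad9 was the lowest receptor-regulated Smad at 0.94 and 1.73 TPM. Smad1 held 41.4% of the summed TPM of the 5 receptor-regulated Smads in pup 1 and 32.9% in pup 2, and Smad2 33.9% and 38.1%. The BMP branch (Smad1, Smad5 and Smad9) stood to the other branch (Smad2 and Smad3) as 1.29 to 1 in pup 1 and 1.03 to 1 in pup 2. Both branches therefore had their transcription factors at similar transcript levels.

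The inhibitory Smads are themselves induced by the signal and feed back on it. Smad6, which acts mainly on the BMP branch, stood at 2.68 TPM (310 counts) in pup 1 and 6.93 (652 counts) in pup 2, 1.98-fold higher in pup 2 with a log2 ratio of 0.99 and an interval of 0.79 to 1.19. Smad7, which acts on both branches, stood at 2.35 and 4.11 TPM (log2 ratio 0.45). The summed TPM of these 2 was 0.097 of that of the receptor-regulated Smads in pup 1 and 0.157 in pup 2. Endothelial markers were also mostly higher in pup 2, for 5 of 6 genes (median log2 ratio 0.69). They were not alone, since 8 of 8 steroidogenic markers (1.11) and all tested kidney and skeletal muscle markers were higher too. The part of any of these in the Smad6 difference was not tested. Of the 8 Smads, 7 had a ratio above 0, where 50.1% of all genes tested did, and 1 of these, Smad5, had an interval that spans 0. Their median log2 ratio of 0.25 was the highest of the 5 roles but lay within the interquartile range of all genes (-0.45 to 0.34).

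The Id genes encode inhibitors of basic helix-loop-helix transcription factors and are classic early targets of BMP receptors. Id2 was the most abundant of the 53 members, at 319 TPM (15054 counts) in pup 1 and 667 (25588 counts) in pup 2, a mean of 493 ± 246 (SD, n = 2). It was 1.6-fold higher in pup 2, with a log2 ratio of 0.68 and an interval of 0.65 to 0.71. Id3 stood at 154 TPM (7217 counts) and 159 (6032 counts), a mean of 156 ± 3.16. Id1 stood at 64.3 TPM (2176 counts) and 69.0 (1899 counts), a mean of 66.6 ± 3.32. The log2 ratios of Id3 (-0.34) and Id1 (-0.28) were close to each other and turn positive as TPM ratios, and Id1 kept 0.417 and 0.435 of the level of Id3. Id2 did not follow them: its level over that of Id1 and Id3 together was 1.46 in pup 1 and 2.93 in pup 2. Id4, by contrast, stood at 8.67 TPM (546 counts) and 5.98 (306 counts), 1.89-fold lower in pup 2 with a log2 ratio of -0.92 and an interval of -1.13 to -0.72. The 4 genes kept the order Id2, Id3, Id1, Id4 in both pups with no overlap.

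Sequence upstream of Id2 and Id4, the Id genes furthest apart in their ratios, and of Smad6 is shown because BMP-responsive control regions of such genes are known to hold a GC-rich element bound by Smad1 and Smad5. The sequences are from RefSeq (GRCm38.p6, the build also called mm10) and are written 5′ to 3′ on the strand of the gene, with the GC-rich element GGCGCC in capitals. The Smad box, searched as GTCTG on both strands, would be capitalised too but is in none of them. The Id2 stretch, chr12:25096254-25096342 on the minus strand, lies in an intron of the longest annotated Id2 transcript and holds 1 GGCGCC, starting 231 bases before the RefSeq start. The Id4 stretch, chr13:48260866-48261115 on the plus strand, holds 1 GGCGCC, starting 148 bases before that start, and the Smad6 stretch, chr9:64022060-64022309 on the minus strand, holds neither motif. The window of Id3, not printed because it overlaps an annotated exon, holds 0 matches of the GC-rich element and 2 of the Smad box.
Id2: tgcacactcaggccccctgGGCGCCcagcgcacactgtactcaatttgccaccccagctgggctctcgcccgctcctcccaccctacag
Id4: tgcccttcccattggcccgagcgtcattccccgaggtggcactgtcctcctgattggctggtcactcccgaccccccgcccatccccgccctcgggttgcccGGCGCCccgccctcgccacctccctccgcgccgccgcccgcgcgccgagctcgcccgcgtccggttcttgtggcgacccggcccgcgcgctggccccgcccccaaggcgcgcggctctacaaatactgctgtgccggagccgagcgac
Smad6: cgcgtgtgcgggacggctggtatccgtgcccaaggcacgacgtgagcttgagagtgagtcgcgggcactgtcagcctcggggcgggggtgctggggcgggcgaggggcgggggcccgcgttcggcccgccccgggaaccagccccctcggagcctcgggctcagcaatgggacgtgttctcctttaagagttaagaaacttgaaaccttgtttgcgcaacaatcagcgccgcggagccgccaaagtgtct

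Over the pathway, 36 of the 53 members had a RefSeq start, with 43 windows of 250 bases before it. GGCGCC, which reads the same on both strands, was in 9 of the 43 windows (20.9%), against 9.59% of 32851 such windows of all genes. The Smad box, read as GTCTG on either strand, was in 18 (41.9%), against 42.2% of all windows, and may share a single end base with the GC-rich element. The members' windows were richer in GC, with a median of 66.4% against 52.4% of all windows, and the part of this in the share with GGCGCC was not tested. A match describes letters only and is not evidence of a bound site.

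The transcript make-up of the abundant members was alike in both pups. Of the 15 members with a mean TPM of at least 10, 9 had more than 1 annotated transcript, and in all 9 the same transcript led in both. Tgfbr2 was split almost evenly, with its leading transcript at 51.1% in pup 1 and 51.5% in pup 2, where known forms of this receptor differ by a short insert in the extracellular part. The leading transcript of Inhba held 88.5% and 85.2%, that of Smad2 82.4% and 87.9%, that of Tgfbr3 99.1% and 92.1% and that of Bmpr1a 94.9% in each.

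TPM ratios of most members lay above their count ratios by about the general offset of 0.39. A few departed from it, and in most of these the length assigned to the gene's transcripts, by which TPM divides, differed between the libraries. The assigned length of Smad5 was 6343 bases in pup 1 and 5383 in pup 2, and its log2 ratio was 0.04 by counts and 0.66 by TPM, 0.24 more than the offset gives. That of Amhr2 was 1097 and 937 bases, with ratios of 0.86 and 1.48 (0.24 more), and that of Bmp4 was 1868 and 1676, with ratios of -0.30 and 0.24 (0.15 more). Acvr1c went the other way, from 4709 to 6357 bases, and its ratios of 1.37 by counts and 1.33 by TPM lack the offset. Gdf6 departed by -0.13 although its assigned length was 3433 bases in both pups, at levels of only 0.16 and 0.06 TPM. As TPM ratios, Bmp7, Id2, Amhr2 and Smad6 pass 2-fold in pup 2, while Fst (-0.74), Bmp3 (-0.93), Inhba (-0.71) and Bmpr1b (-0.52) stay below 2-fold in pup 1.

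**Figure D4:**
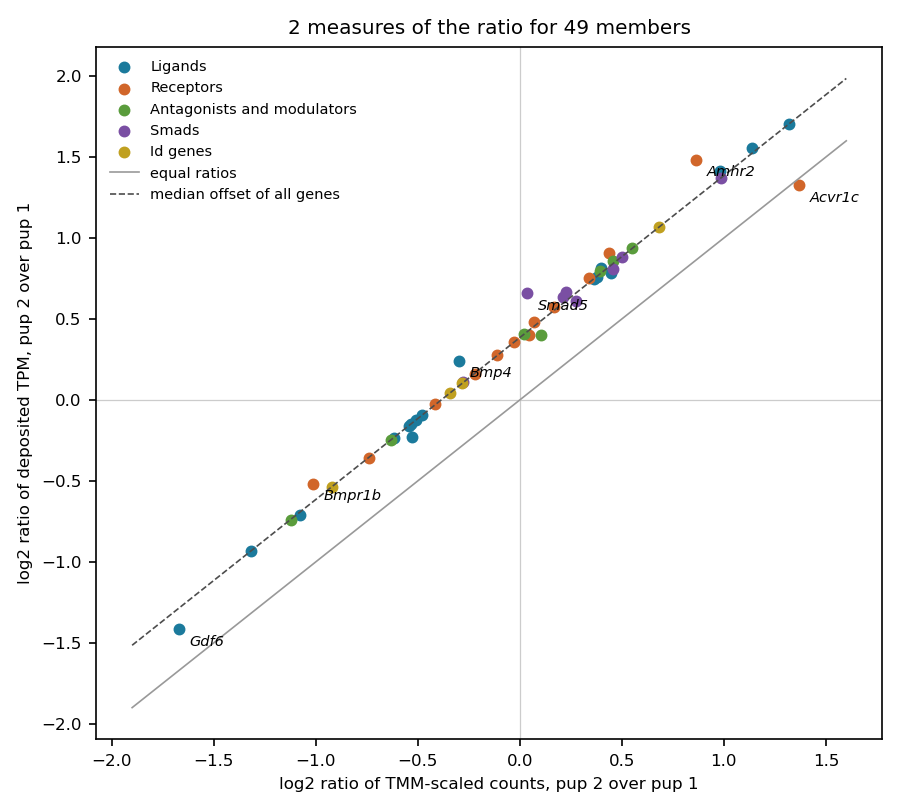
Log2 ratio of pup 2 over pup 1 from deposited TPM against that from counts, for the 49 members tested; the solid line marks equal values and the dashed line the median offset of 0.39 over all genes. Most members follow the dashed line, with Smad5 and Amhr2 above it and Acvr1c on the solid line.

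Other genes of the pathway, drawn from a list of 80, were read the same way. Of the 79 that matched, 69 had enough counts, with 27 higher and 42 lower in pup 2, and 4 and 10 of these over 2-fold. These 14 are 20.3% of the genes tested, against 15.8% of all genes. By TPM, 42 were higher and 27 lower in pup 2. Over all genes tested, 50.1% were higher in pup 2 by counts and 72.1% by TPM, a background for each list below. The store and release of latent TGF-beta was well represented: 11 of 12 genes stood at TPM 1 or more in both pups, 8 of the 11 tested were lower in pup 2 (6 by TPM), and the median log2 ratio was -0.44. Itgav, an integrin subunit that activates latent TGF-beta, stood at 54.7 and 73.6 TPM, and the latent TGF-beta binding proteins Ltbp4 and Ltbp3 at 71.5 and 44.8 and at 15.6 and 21.9. Ltbp4 was 2.15-fold lower in pup 2 (12693 and 6273 counts).

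Of 13 other extracellular modulators tested, 10 were lower in pup 2 (8 by TPM), with -0.47 as the median log2 ratio. The glypican Gpc3, at 488 and 369 TPM, and the follistatin-like Fstl1, at 221 and 210, led the list. The BMP antagonist Nbl1 stood at 131 and 80.0 TPM and was 2.10-fold lower in pup 2. Sostdc1, a BMP and Wnt antagonist, stood at 24.2 and 9.51 TPM (3.32-fold lower) and Fstl4 at 1.24 and 0.57 (2.85-fold lower). By counts, modulators outside the 53 thus lay mostly higher in pup 1. So did stroma and capsule, sympathetic neuron, Schwann and glial and liver markers, whose part was not tested. Of the coreceptors, the endothelial TGF-beta coreceptor endoglin (Eng) stood at 32.2 and 50.4 TPM, and the BMP coreceptors Rgmb at 12.5 and 9.42 and Rgma at 3.05 and 2.37 (2.09-fold lower). Tgfbrap1, a receptor-associated protein, stood at 3.30 and 5.51.

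All 15 intracellular regulators stood at TPM 1 or more in both pups and none was over 2-fold apart, with 8 higher and 7 lower in pup 2 by counts but 14 and 1 by TPM. Fkbp1a, which binds the type I receptor, stood at 188 and 264 TPM, the antiproliferative gene Tob1 at 39.9 and 98.0 (1.88-fold higher by counts) and the Smad corepressor Tgif1 at 20.7 and 45.4. Of 16 response genes tested, 6 were higher and 10 lower in pup 2 (median log2 ratio -0.26). By TPM, 10 were higher and 6 lower, where 72.1% of all genes tested were higher. Tsc22d1 stood at 400 and 774 TPM, the collagen gene Col1a1, which is also 1 of the stroma markers, at 492 and 490, and the cell cycle inhibitor Cdkn1a at 34.1 and 39.9. Ccn2, or connective tissue growth factor, stood at 13.1 and 5.82 TPM and was 2.47-fold lower in pup 2 (788 and 339 counts). The response genes therefore did not move together.

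**Figure D5:**
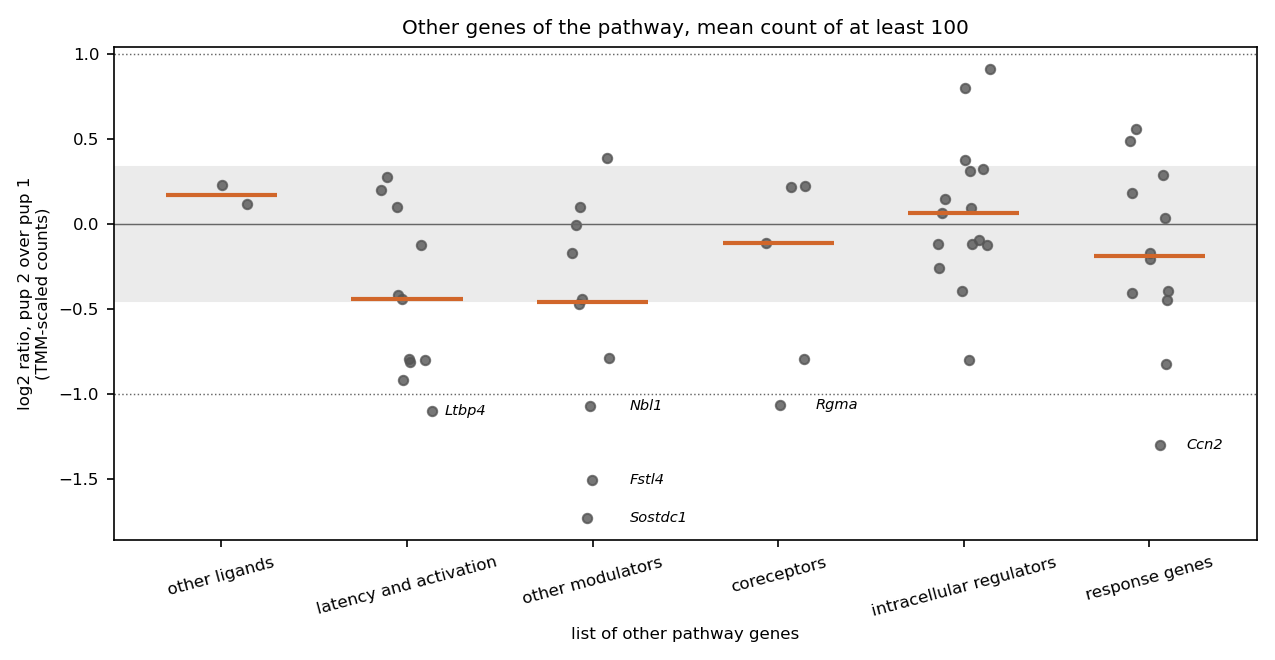
Log2 ratio of pup 2 over pup 1 for the pathway genes outside the 53 members with a mean count of at least 100, by list; orange bars are medians, and genes over 2-fold apart are named. All 6 named genes (Ltbp4, Nbl1, Fstl4, Sostdc1, Rgma and Ccn2) lie below the lower 2-fold line.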

How the data were processed

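Total RNA of adrenal glands of 2 newborn pups was sequenced, 1 library each, per the labels. The authors deposited, per gene and transcript, estimated counts (expected counts, not whole for 15.3% and 15.9% of genes) and TPM, with isoform percent per transcript. Build mm10 is given per the file headers; the quantifier and its strand setting were not stated in the labels or headers used here, so genes on overlapping strands cannot be told apart. Symbols came from GENCODE M21 by Ensembl identifier.

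Spike-in and numbered non-gene rows were left out of scaling. Expected counts were rounded, 0.5 was added, and log2 ratios were scaled by TMM (edgeR 4.0.16; factors 0.963 and 1.04) over genes whose counts averaged 10 or more. Exact binomial 95% intervals cover counting error only, and no p-value was computed with 1 library per pup. The steps were tested on simulated data. The text gives full values for the 5 highest genes of each role, all over 2-fold apart and those under TPM 1, and of other pathway genes the 3 highest of each list and those over 2-fold apart at a mean count of at least 100. Members and lists were chosen with earlier results of these data known. Alternatives were DESeq2 1.42.0 size factors, spike-in scaling, TPM ratios, posterior means, other pseudocounts and minimums, a length and GC trend, and TPM over nuclear protein-coding genes.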

Additional observations from a re-analysis of the deposited data

How the results depend on the processing

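With spike-in scaling, 48 members were over 2-fold higher in pup 2 and 0 in pup 1, with median log2 ratios of 2.61 for all members, 2.09 for ligands, 2.61 for receptors, 2.67 for modulators, 2.82 for Smads and 2.26 for Id genes. All 22 members below 0 then changed sign, among them the 5 over 2-fold higher in pup 1: Fst (1.45), Bmp3 (1.25), Inhba (1.49), Gdf6 (0.90) and Bmpr1b (1.56). The spike-ins rest on 5717 and 1022 counts, and the cause was not tested. As deposited TPM ratios, 7 members were over 2-fold higher in pup 2 and 1 in pup 1, with medians of 0.41 for all, -0.10 for ligands, 0.40 for receptors, 0.41 for modulators, 0.66 for Smads and 0.071 for Id genes, where 13.3% and 5.06% of all genes passed 2-fold in pup 2 and pup 1. TPM rescaled over nuclear protein-coding genes gave median levels of 8.06 for all members, 3.82 for ligands, 8.08 for receptors, 9.19 for modulators, 10.9 for Smads and 161 for Id genes. The other planned settings kept these counts within 1.5 times. The receptor median, 0.05, turned to -0.02 with the length and GC trend removed, and the modulator median, 0.10, rose to 0.25 with no count minimum. No paired analysis was possible because the libraries form 1 group with no contrast. Depth limits the 4 members with a mean count under 10 (Mstn, Nodal, Amh and Nog). Of those tested, Gdf6, Grem1, Gdf15, Gdf5 and Amhr2 had a mean count under 100. Gdf5 was the only tested member whose posterior SD exceeded 5% of its count. That SD does not track depth, being 0 for Gdf6 with 22 and 7 counts.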

Other observations

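Transcripts of the reproductive branch of the family were read at low levels. Amh had 5 and 4 counts in pup 1 and pup 2, while its receptor Amhr2 had 35 and 68. Of the ligands best known from the oocyte, Gdf9 had 16 and 25 counts and Bmp15 had 67 and 32. The germ cell genes Ddx4 (60 and 44 counts) and Dazl (50 and 27 counts) were likewise detected in both pups, and Sox9, which is expressed in many tissues, had 377 and 584. The gonadal genes Foxl2 (0 and 1 counts) and Dmrt1 (0 in both) were close to or at 0.

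Among the other embryonic ligands, the Nodal antagonist Lefty1 had 162 and 202 counts (3.21 and 4.79 TPM), far above Nodal itself. Lefty2 had 5 and 17 counts, and Gdf3 had 0 and 28. Inhbe, a subunit known from liver, had 160 and 184 counts (1.95 and 2.76 TPM), in libraries where liver markers summed to 1747 and 1340 TPM. The part of liver RNA in the Inhbe level was not tested. Bmp10, a ligand of the heart, had 0 counts in both pups, which allows up to 3 in each.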
